A study of Mus musculus with 8 samples.

Results

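Robo4, Mmrn2, Emcn and Pecam1 are genes of the endothelium that lines blood vessels, and they were followed here across 8 mammary tumours. They were chosen because they had read higher in SKI-606 tumours than in vehicle tumours in an earlier look at these arrays, so that difference is described below and not tested. Each of the 4 genes was found by its Entrez Gene ID in the probe identifier, and each had 1 probe named this way. The array held 7386 named genes, of which 4137 passed the detection filter. All 4 probes were detected on 8 of 8 arrays.

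The tumours came from female MMTV-PyVmT mice on the FVB/N-Tg(MMTV-PyVT)634Mul/J background, in which the mouse mammary tumour virus promoter drives the polyoma middle T oncoprotein in mammary epithelium, a transgene that both groups carry. The SKI-606 group (n = 4) had received SKI-606, or bosutinib, an inhibitor of Src and Abl kinases, by mouth at a dose of 100 mg/kg, suspended in 0.5% methocellulose and 0.4% detergent, and the vehicle group (n = 4) is labelled as vehicle-treated. The labels give neither age nor length of treatment, and they do not say that no mouse gave more than 1 tumour, so errors and p-values below measure the spread between these samples, which may be technical. By its title, the series is about differentiation of the tumours under the drug.

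Vessels inside a tumour are lined by endothelial cells that came from the host, and vascular endothelial growth factor, Notch and angiopoietin signals govern their growth. Robo4 is an endothelial member of the roundabout receptor family that holds vessels stable and binds Unc5b. Mmrn2 (multimerin) is a matrix glycoprotein of the endothelial basement membrane that binds the receptors Clec14a, Cd93 and Cd248. Emcn (endomucin) is a sialomucin on the surface of capillary and venous endothelium, and Pecam1 (CD31) is an adhesion molecule of endothelial junctions that platelets and many leukocytes also carry.

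RefSeq's promoter table (GRCm38.p6) held 2 of the 4 genes, and both windows are shown because endothelial promoters are known for sites of ETS transcription factors, whose core is GGAA. The window runs from 250 bases before to 50 after the gene's start, both lie on the plus strand, and capitals mark GGAA or its reverse complement TTCC.
Robo4, chr9:37401722-37402021: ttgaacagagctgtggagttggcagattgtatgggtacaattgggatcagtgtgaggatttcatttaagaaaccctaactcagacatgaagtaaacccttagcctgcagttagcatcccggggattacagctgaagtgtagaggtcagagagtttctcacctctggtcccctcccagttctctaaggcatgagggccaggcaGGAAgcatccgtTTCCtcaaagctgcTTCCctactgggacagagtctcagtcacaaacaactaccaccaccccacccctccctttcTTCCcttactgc
Emcn, chr3:137340828-137341127: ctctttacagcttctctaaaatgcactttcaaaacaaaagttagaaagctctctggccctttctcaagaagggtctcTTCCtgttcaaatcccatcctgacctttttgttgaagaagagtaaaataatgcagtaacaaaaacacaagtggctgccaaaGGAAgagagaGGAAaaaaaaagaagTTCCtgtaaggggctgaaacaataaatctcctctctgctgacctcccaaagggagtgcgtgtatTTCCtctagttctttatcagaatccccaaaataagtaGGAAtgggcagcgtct

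The core is common: 96.0% of the 32851 promoters of this length in the table hold GGAA on either strand, with a median of 3 matches. The Robo4 window holds 4, as many as or fewer than 46.3% of all promoters, and the Emcn window holds 6, a count reached by 15.7%. The longer form AGGAAG, which contains the core, is found on either strand in 35.3% of promoters, once in the Robo4 window and at 2 places in the Emcn window. Neither window holds GGGCGG (35.7% of promoters) or TATAA (24.9%) on either strand, and GATAA (25.4%) is in the Emcn window only. The Emcn window is 41% G and C and the Robo4 window 50.3%, against a median of 52.7%. These matches describe letters and not binding.

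Before the values, 3 facts about the arrays bear on them. Mean deposited signal ran from 300.3 to 419.7 over the 8 arrays, and the dimmest were SKI-606 replicate 1 (300.3) and vehicle replicate 4 (313.0). The source name of SKI-606 replicate 2 speaks of human islet cells while its other labels match the rest. It was kept in the group its title gives, and the markers do not settle the label. On the normalized log2 scale its Krt8, a keratin of simple epithelia, read 13.10, within the 12.49 to 13.28 of the other 7 arrays. The epithelial markers Krt17, Prom1 and Cldn4 set it apart from the other SKI-606 tumours. Its Krt17 read 11.63 against 7.33 to 8.28, its Prom1 10.78 against 8.85 to 9.44 and its Cldn4 11.17 against 9.14 to 9.72. On these markers it lay nearer to the vehicle tumours. Its Cldn4 was within the vehicle range of 10.19 to 11.44, and its Prom1 was below every vehicle tumour. For Krt17, vehicle replicate 2 was close to it at 11.36, while the other vehicle tumours read 8.67 to 9.82. The SKI-606 arrays held the first 4 positions of 1 chip and the vehicle arrays the last 4, so chip position and treatment cannot be told apart.

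Normalized log2 signals, background-corrected and brought to the same distribution on every array, are used from here on unless a sentence names another scale. A level of 5.96 was the median of the 10445 probes detected on no array, which marks the dim end of the scale. Robo4 read 9.09, 9.08, 8.59 and 8.92 in SKI-606 replicates 1 to 4 and 8.15, 8.36, 7.96 and 8.36 in vehicle replicates 1 to 4. The groups did not overlap, with 0.23 between SKI-606 replicate 3 and vehicle replicate 2, the tumours that lay closest. The means were 8.92 ± 0.23 and 8.21 ± 0.19 (SD, n = 4), a difference of 0.71 ± 0.14 (SE) on the log2 scale or 1.64-fold.

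Mmrn2 read 8.42, 8.14, 8.16 and 8.05 in SKI-606 replicates 1 to 4 and 7.43, 7.76, 7.32 and 7.87 in vehicle replicates 1 to 4. The vehicle tumours fell into a lower pair, replicates 1 and 3, and a higher pair, replicates 2 and 4, and all 4 lay below every SKI-606 tumour, by at least 0.18. The means were 8.19 ± 0.16 and 7.59 ± 0.26 (SD, n = 4), a difference of 0.60 ± 0.14 (SE) or 1.51-fold.

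Emcn read 9.76, 9.62, 9.14 and 9.22 in SKI-606 replicates 1 to 4 and 8.83, 9.10, 8.73 and 8.89 in vehicle replicates 1 to 4. Here it was the SKI-606 group that was split, with replicates 1 and 2 high, and replicate 3 only 0.042 above vehicle replicate 2. The means were 9.43 ± 0.30 and 8.89 ± 0.15 (SD, n = 4), a difference of 0.55 ± 0.16 (SE) or 1.46-fold.

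Pecam1 read 7.53, 7.16, 6.97 and 7.03 in SKI-606 replicates 1 to 4 and 6.48, 6.71, 6.49 and 6.97 in vehicle replicates 1 to 4. SKI-606 replicate 3 exceeded vehicle replicate 4 by 0.0015, so these 2 tumours were level and the groups touched. The means were 7.17 ± 0.25 and 6.66 ± 0.23 (SD, n = 4), a difference of 0.51 ± 0.16 (SE) or 1.42-fold. Each tumour piece is bulk tissue, in which more endothelial cells and more RNA per endothelial cell cannot be told apart. Without SKI-606 replicate 2, whose labels conflict, the differences were 0.66 for Robo4, 0.62 for Mmrn2, 0.49 for Emcn and 0.53 for Pecam1. The groups stayed apart, but this tumour was the lowest of its group for none of the genes, so leaving it out could hardly change that.

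**Figure D1:**
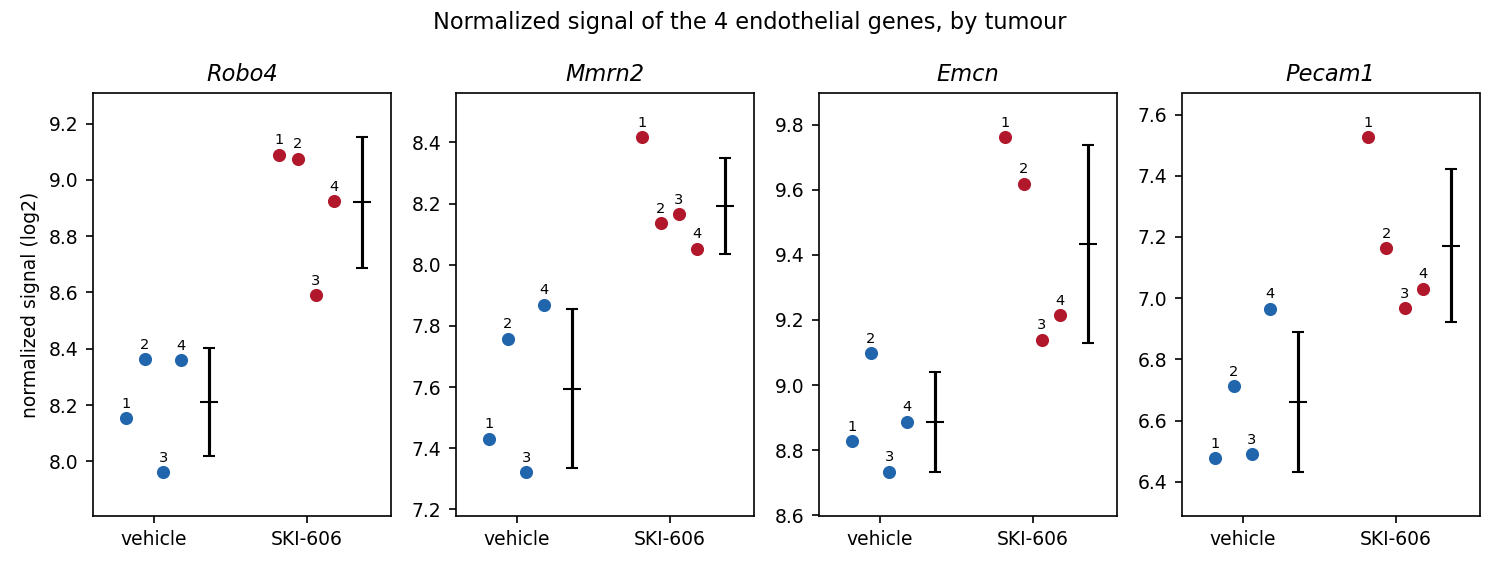
Normalized log2 signal of Robo4, Mmrn2, Emcn and Pecam1 (vertical axes, each with its own range) in the vehicle and SKI-606 tumours; points are tumours with their replicate number, and bars show the mean and SD (n = 4). In each panel the SKI-606 tumours lie above the vehicle tumours, for Pecam1 by only 0.0015 at the closest.

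For comparison, limma called 1 of 12281 probes at an adjusted p under 0.05 (0.00814%), and 2004 (16.3%) had an unadjusted p under 0.05, 742 of them higher with SKI-606 (6.04%). Groups did not overlap for 1373 probes (11.2%), of which 462 were higher with SKI-606 (3.76%). The 4 genes were picked from the upper side of this contrast, and nothing is read from their place in it.

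Which tumour stood high was shared among the 4 genes more in some tumours than in others. SKI-606 replicate 1 was the highest of all 8 tumours for each gene, between 0.82 and 0.88 above the gene's vehicle mean. That place came with normalization. In the deposited signals, where its array had the lowest mean, SKI-606 replicate 2 was the highest for each gene instead. In SKI-606 replicate 2 the genes spread from 0.50 for Pecam1 to 0.87 for Robo4, and in replicate 4 from 0.33 for Emcn to 0.72 for Robo4. SKI-606 replicate 3 was the lowest treated tumour for Robo4, Emcn and Pecam1, at 0.38, 0.25 and 0.31, but not for Mmrn2, at 0.57. Averaged over the 4 genes, the SKI-606 tumours lay 0.86, 0.66, 0.38 and 0.47 above the vehicle mean in order of replicate number. Among vehicle tumours, replicate 3 was lowest on this average at -0.21 and replicate 1 next at -0.12, while replicates 2 and 4 stood at 0.14 and 0.18.

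Likeness between genes was measured as the root mean square difference of 2 genes over the 8 tumours, each gene centred on its own mean. This measure holds the group difference that chose the 4 genes, so they start out alike on it. Mmrn2 and Pecam1 were each other's nearest gene among 4066 compared, at 0.11 on the log2 scale. With each group centred on its own mean, which takes the group difference out, they were still 0.097 apart, where Pecam1 was in place 2 of 4066 for Mmrn2 and Mmrn2 in place 4 for Pecam1. Robo4 and Emcn were 0.12 apart on that footing, and Robo4 was in place 9 for Emcn while Emcn was in place 43 for Robo4. Other pairs were less close, with Mmrn2 in place 191 for Robo4 and Robo4 in place 148 for Mmrn2. Pecam1 was in place 111 for Robo4 and 72 for Emcn, while Robo4 was in place 62 and Emcn in place 122 for Pecam1. Mmrn2 and Emcn were the least alike pair at 0.18, where Emcn was in place 479 for Mmrn2 and Mmrn2 in place 188 for Emcn. A gene that hardly varies within groups can also rank well on this measure, so a place need not mean a shared pattern. All these distances share the same 8 arrays and their normalization.

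For the genes outside the set that lay nearest to each of the 4, the distance again held the group difference, so a like difference between groups was bound to follow and is given with no test. Nrp1, the neuropilin coreceptor for vascular endothelial growth factor and semaphorins, was nearest to Robo4 at 0.093, and in place 7 with each group centred on its own mean. Nrp1 read 9.40, 9.65, 9.0 and 9.36 in SKI-606 replicates 1 to 4 and 8.62, 8.80, 8.59 and 8.79 in vehicle replicates 1 to 4. Its groups did not overlap, and it differed by 0.66 ± 0.14 (SE), while its other probe differed by 0.56 ± 0.14.

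Hspg2 encodes perlecan, a heparan sulfate proteoglycan of basement membranes, and was nearest to Emcn at 0.094 and next after Nrp1 for Robo4 at 0.11. With the group difference taken out it was in place 3 for Emcn and 6 for Robo4. It read 10.38, 10.52, 9.82 and 10.09 in SKI-606 replicates 1 to 4 and 9.52, 9.82, 9.45 and 9.70 in vehicle replicates 1 to 4. SKI-606 replicate 3 and vehicle replicate 2 were nearly level, and the difference was 0.58 ± 0.16 (SE). Eng, the endoglin coreceptor for transforming growth factor beta ligands on endothelium, came next after Mmrn2 for Pecam1 at 0.13, followed by Ehd4, an endocytic recycling ATPase, at 0.14. Within groups Eng was in place 26 and Ehd4 in place 27 for Pecam1, and Ehd4 differed by 0.38 ± 0.16 between groups.

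Srxn1, the sulfiredoxin that repairs oxidised peroxiredoxins and no endothelial gene by name, came next after Pecam1 for Mmrn2 at 0.13, and in place 40 within groups. It differed by 0.61 ± 0.13, but its other 2 probes, both near the dim end of the scale, differed by 0.058 and -0.0020.

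**Figure D2:**
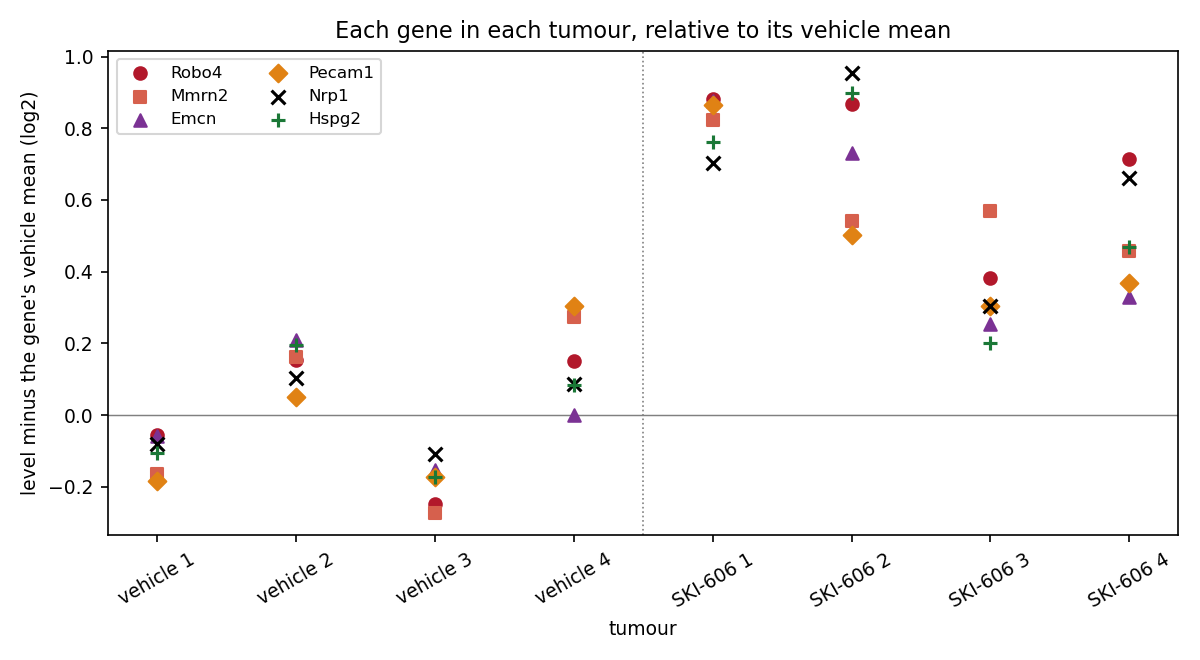
Level of each gene minus its own vehicle mean (vertical axis, log2) in each of the 8 tumours (horizontal axis), for the 4 endothelial genes and for Nrp1 and Hspg2. SKI-606 replicate 1 has the 4 genes closest together, between 0.82 and 0.88, and SKI-606 replicate 3 the lowest average of the treated tumours at 0.38.

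Beyond the 4 genes, a list of 52 endothelial genes had a named probe for 14, of which 9 passed the detection filter. Most probes of the array were given no gene name, so the rest of the list may be on it unnamed. Of these 9, 8 read higher in SKI-606 tumours and 1 lower, where 47.7% of all 4137 named genes read higher. Their median difference was 0.15 against -0.0077 for all named genes, and 0 of 9 passed limma's adjusted threshold, as for all named genes (0%). At an unadjusted p under 0.05 there were 2 higher and 0 lower, where 6.48% of named genes were higher and 8.94% lower. Over the other ways of processing the median ran from 0.061 to 0.38, and it was 0.29 without SKI-606 replicate 3 and 0.23 without replicate 4. The reported median is the value of Gja5, a dim gene detected on 4 of 8 arrays. Over probes detected on all 8 arrays the median was 0.26. The list was drawn up with earlier results of these arrays known, so these counts are a description.

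Lmo2, a transcriptional cofactor of blood and endothelial cells, had the largest difference of the 9, yet its groups overlapped. It read 10.69, 9.12, 9.97 and 10.13 in SKI-606 replicates 1 to 4 and 9.26, 8.99, 9.61 and 9.14 in vehicle replicates 1 to 4, a difference of 0.73 ± 0.32 (SE; limma adjusted p = 0.311). SKI-606 replicate 2 lay among the vehicle tumours for Lmo2, although it was high for Robo4 and Emcn.

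Eng read 7.58, 7.20, 7.22 and 6.95 in SKI-606 replicates 1 to 4 and 6.82, 6.79, 6.73 and 6.97 in vehicle replicates 1 to 4. SKI-606 replicate 4 lay just below vehicle replicate 4, and the difference was 0.41 ± 0.13 (SE; limma adjusted p = 0.200). Egfl7, a matrix protein secreted by endothelium, also differed by 0.41, with a larger error of 0.20 (limma adjusted p = 0.368). Rasip1, an endothelial Ras-interacting protein needed for vessel lumens, was the only one of the 9 whose groups did not overlap, where 3.58% of named genes were apart with SKI-606 higher. Its levels were low, at 6.55 ± 0.08 and 6.29 ± 0.11 (SD, n = 4), and differed by 0.26 ± 0.07 (SE; limma adjusted p = 0.18).

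The other 5 were near 0 or dim. Notch4, a Notch receptor of endothelium, averaged 8.56 ± 0.52 with SKI-606 against 8.49 ± 0.28 with vehicle (SD, n = 4; limma adjusted p = 0.930). Ephb4, the ephrin receptor of venous endothelium that mammary epithelium also makes, was the 1 gene that read lower, at 9.23 ± 0.37 against 9.28 ± 0.16 (limma adjusted p = 0.928). Gpihbp1, which carries lipoprotein lipase to the capillary surface, read 7.27 ± 0.48 against 7.19 ± 0.19 (limma adjusted p = 0.910). The arterial connexin gene Gja5 differed by 0.15 ± 0.09 (SE) and was detected on 4 of 8 arrays, and Exoc3l2 by 0.053 ± 0.052 on 7 of 8. Below the filter were Erg and Calcrl, detected on 0 arrays, Dll4 on 1, and Fli1 and Myct1 on 2 each. The defining genes Cdh5, Kdr, Tek, Tie1 and Vwf had no probe named here.

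**Figure D3:**
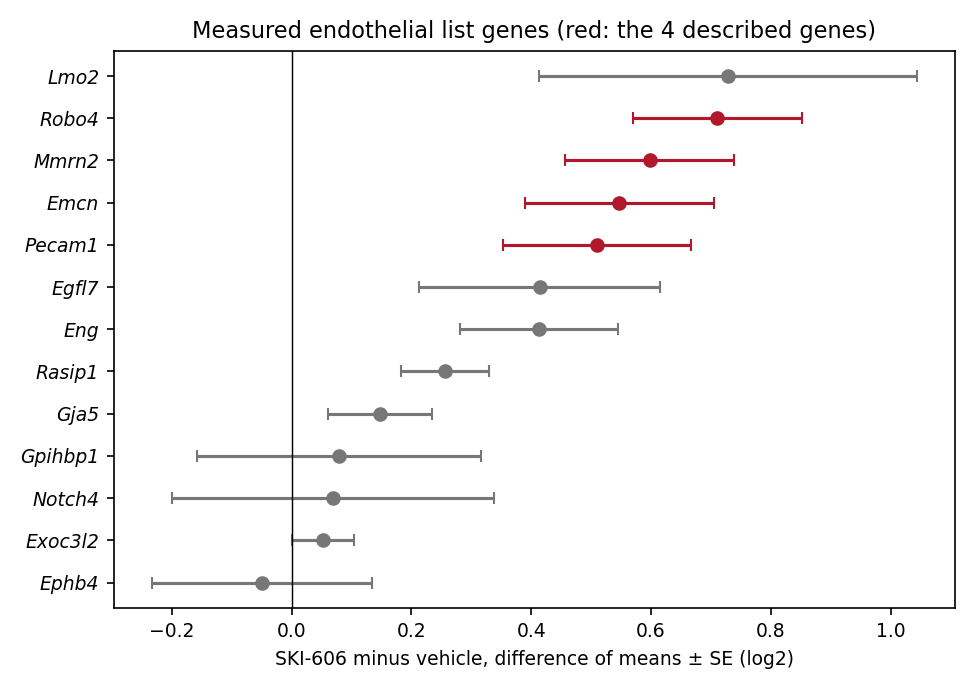
Difference of group means, SKI-606 minus vehicle, on the log2 scale with its SE (horizontal axis) for the 13 endothelial genes that passed the detection filter; red marks the 4 described genes. Lmo2 stands at 0.73 with the widest error of 0.32, and Ephb4 is the only gene below 0.

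Of 28 ligands, receptors and signalling partners of the 4 proteins and their relatives, 13 had a named probe and 8 were measured. With SKI-606, 3 were higher and 5 lower, at a median of -0.038 (0 past limma's adjusted threshold), where 47.7% of all named genes were higher. Slit2, a ligand of the roundabout family, averaged 6.76 ± 0.15 with SKI-606 against 6.53 ± 0.10 with vehicle (SD, n = 4), and its closest tumours were at 6.68 and 6.67 (limma adjusted p = 0.265). Unc5b, the netrin receptor family member that binds Robo4, read 6.76 ± 0.45 against 6.78 ± 0.31 (limma adjusted p = 0.981). Robo1, another roundabout receptor, read 6.77 ± 0.61 against 6.87 ± 0.41 (limma adjusted p = 0.917). Neither partner receptor showed a difference beyond its spread.

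Emilin2, a relative of Mmrn2, differed by 0.057 ± 0.12 (SE; limma adjusted p = 0.868). Ptpn11, the SHP2 phosphatase that docks on Pecam1, differed by -0.19 ± 0.12 (limma adjusted p = 0.502), and its other probe by -0.033. Cd177, a neutrophil protein that binds Pecam1, was at 9.12 in SKI-606 replicate 1 and at most 6.92 in the other 7 tumours (limma adjusted p = 0.789). The actin regulators Enah and Vasp differed by -0.82 ± 0.33 (limma adjusted p = 0.282) and -0.059 ± 0.049 (limma adjusted p = 0.620), and the other Enah probe by -0.017. Robo2, detected on 1 array, and Robo3, Src, Yes1 and Pxn, detected on 0, were below the filter, and Clec14a, Cd93 and Cd248 had no probe named here.

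Of 48 genes of vessel growth signalling, 10 were measured, 8 higher and 2 lower, with a median of 0.14 and 0 past limma's adjusted threshold. Among all named genes 47.7% were higher, at a median of -0.0077. Nrp1 had the smallest p among them (limma adjusted p = 0.113). Mef2c, a transcription factor of muscle and endothelium, differed by 0.26 ± 0.08 (SE; limma adjusted p = 0.207). Klf2, a factor that blood flow induces in endothelium, read 8.06 ± 0.38 against 7.42 ± 0.37 (SD, n = 4; limma adjusted p = 0.261). The vessel inhibitor Thbs1 differed by -0.20 ± 0.09 (SE; limma adjusted p = 0.338), but it was dim and detected on 5 of 8 arrays. Its brighter relative Thbs2 differed the other way, by 0.29 ± 0.31 (SE; limma adjusted p = 0.714). Of 23 adhesion and leukocyte passage genes, 7 were measured and 6 were higher, beside the same 47.7% of all named genes. Cd47 and Vcam1, the latter a docking protein for leukocytes on endothelium, each differed by 0.52 ± 0.17 (limma adjusted p = 0.214 and 0.220), Itgav by 0.18 ± 0.10 (limma adjusted p = 0.437) and F11r by 0.28 ± 0.19 (limma adjusted p = 0.528).

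Markers of other cells that a tumour piece can hold were measured on the same arrays, as the level summed over a list's measured genes on the linear scale of the normalized signal. Beside the counts below, 47.7% of all named genes read higher with SKI-606 and 52.3% lower. For fibroblasts, 7 of 16 genes were measured and all 7 read higher with SKI-606. Their sums were 11370 to 15649 in SKI-606 and 5950 to 9526 in vehicle tumours. The groups of 3 of them, Col6a1, Col6a3 and Fbln1, did not overlap, where 3.58% of named genes were apart with SKI-606 higher. Col6a1 differed by 0.44 ± 0.10 (SE; limma adjusted p = 0.122), Col6a3 by 0.58 ± 0.14 (limma adjusted p = 0.144), Fbln1 by 1.08 ± 0.27 (limma adjusted p = 0.148) and Dcn by 0.90 ± 0.33 (limma adjusted p = 0.244). The other Dcn probe differed by 0.78 ± 0.20, with its groups apart. SKI-606 replicate 1, after normalization the highest tumour for the 4 endothelial genes, had the lowest fibroblast sum of the treated tumours, where Dcn weighs most. By the mean log2 deviation of the 7 genes from vehicle, the lowest was SKI-606 replicate 4 at 0.52, with replicate 1 at 0.59. The part of matrix-rich tissue in the endothelial difference was not tested.

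For adipocytes, 2 of 13 genes were measured, Lpl at 1.74 ± 0.72 (limma adjusted p = 0.294) and Pnpla2 at 0.55 ± 0.27 (limma adjusted p = 0.376), and sums ran from 2501 to 8944 in SKI-606 and 2184 to 3312 in vehicle tumours. The highest sum, 8944, was again that of SKI-606 replicate 1, while SKI-606 replicate 2, second for the endothelial average, had the lowest treated sum of 2501. The defining genes Fabp4 and Cd36 were detected on 0 and 1 arrays, and the part of fat tissue was not tested. Without SKI-606 replicate 1 the 4 differences were 0.66 for Robo4, 0.52 for Mmrn2, 0.44 for Emcn and 0.40 for Pecam1. The groups stayed apart, which leaving out the highest tumour could hardly change.

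Leukocyte markers, of interest because leukocytes carry Pecam1, had 5 of 16 genes measured, 2 higher and 3 lower, with sums of 1493 to 2032 in SKI-606 and 1576 to 2035 in vehicle tumours. Csf1r differed by 0.35 ± 0.12 (limma adjusted p = 0.232), C1qb by -0.27 ± 0.15 (limma adjusted p = 0.434), Cd3e by 0.18 ± 0.11 (limma adjusted p = 0.501) and C1qa by -0.18 ± 0.13 (limma adjusted p = 0.557), and the defining gene Ptprc was detected on 0 arrays. The platelet genes Itga2b and Gp1bb were detected on 0 arrays. Of 5 red cell genes only Hba-a1 was measured, with sums of 1064 to 2637 in SKI-606 and 1563 to 3198 in vehicle tumours, a difference of -0.16 ± 0.34 (limma adjusted p = 0.869).

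Mural cells, which wrap vessels, were measured by 1 of 16 genes, Acta2, at 6.46 ± 0.24 against 6.30 ± 0.10 (SD, n = 4; limma adjusted p = 0.588), with sums of 70.1 to 102.3 and 74.0 to 84.9. Abcc9 and Cnn1 were detected on 0 arrays. Lymphatic genes had 3 of 7 measured, all dim, with sums of 200.2 to 258.2 in SKI-606 and 199.8 to 223.2 in vehicle tumours. Prox1 differed by 0.11 ± 0.10 (SE), Ccl21a by 0.086 ± 0.14 and Reln by -0.027 ± 0.069 (limma adjusted p from 0.631 to 0.896). The arrays thus carried little on the other cells of the vessel wall.

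Luminal epithelial sums, over 5 of 13 genes, ran from 11087 to 20247 in SKI-606 and 16884 to 19666 in vehicle tumours, lowest in SKI-606 replicate 1. Prom1 differed by -1.67 ± 0.40 on the log2 scale (limma adjusted p = 0.142), Cldn4 by -0.82 ± 0.47 (limma adjusted p = 0.450), and Krt19 and Krt8 differed by 0.21 and -0.091. Basal epithelium was measured by Krt17 at -0.85 ± 1.03 and Acta2, 2 of 6 genes, with sums of 255.9 to 3262 in SKI-606 and 491.9 to 2717 in vehicle tumours. Of 16 hypoxia genes 4 were measured and 3 were lower, Egln3 at -1.89 ± 0.27 (limma adjusted p = 0.0987), Pgk1 at -0.50 ± 0.26 (limma adjusted p = 0.403) and Egln1 at -0.20 ± 0.17 (limma adjusted p = 0.611), while Ldha differed by 0.19 ± 0.12 (limma adjusted p = 0.510). Prom1 and Egln3 were the measured genes of these lists whose groups lay apart with SKI-606 lower, as did 5.92% of named genes. The other Egln1 probe, near the dim end of the scale, differed by -0.022. Hif1a was detected on 0 arrays. The part of epithelial content or oxygen supply in the endothelial values was not tested.

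The non-overlap of the 4 genes came with normalization. In the signals as deposited, Robo4 read 415.2, 611.3, 413.9 and 560.4 in SKI-606 replicates 1 to 4 and 343.6, 450.9, 307.2 and 299.7 in vehicle replicates 1 to 4, so vehicle replicate 2, on the brightest array, exceeded SKI-606 replicates 1 and 3. The same vehicle tumour, at 315.3 for Mmrn2, exceeded SKI-606 replicate 1 at 277.2. For Pecam1 it read 156.2, above SKI-606 replicate 3 at 147.6.

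For Emcn, at 709.7, vehicle replicate 2 exceeded every SKI-606 tumour but replicate 2 at 864.2. Mean deposited signals were 500.2 ± 101.1 against 350.4 ± 69.7 for Robo4, 314.0 ± 25.8 against 241.9 ± 49.3 for Mmrn2, 700.4 ± 113.8 against 538.4 ± 123.2 for Emcn and 168.1 ± 17.0 against 123.6 ± 23.0 for Pecam1 (SKI-606 against vehicle, SD, n = 4). On the log2 scale without correction the differences were 0.51, 0.39, 0.39 and 0.46, while the median of all named genes stood at -0.10. Relative to that median they were 0.62, 0.50, 0.50 and 0.56.

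**Figure D4:**
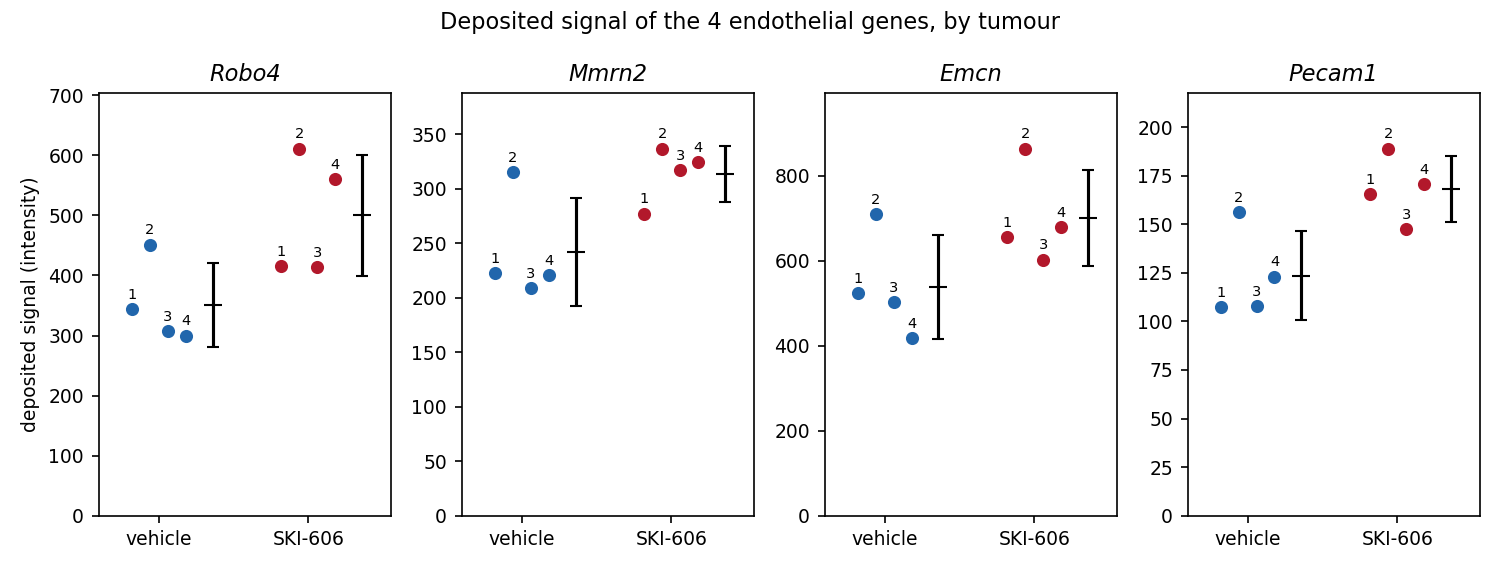
Deposited signal (vertical axes, intensity from 0) of the 4 genes in the vehicle and SKI-606 tumours, before any correction; points are tumours with their replicate number, and bars show the mean and SD (n = 4). Vehicle replicate 2 overlaps the SKI-606 tumours in every panel, as at 709.7 for Emcn.

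The authors' second table, normalized by its own method on the linear scale, placed Robo4 at 528.2 ± 73.9 with SKI-606 against 337.0 ± 38.6 with vehicle, and Emcn at 742.4 ± 147.5 and 514.6 ± 52.1 (SD, n = 4). Mmrn2 was at 333.1 ± 33.4 and 233.1 ± 36.6 there, and Pecam1 at 178.7 ± 30.2 and 121.3 ± 25.0. The groups did not overlap for any of the 4, and the closest tumours of Pecam1 were 0.16 units apart (154.6 in SKI-606 replicate 3 and 154.4 in vehicle replicate 4). Over 21 other ways of processing, the differences of the 4 genes stayed above 0, between 0.51 and 0.81 for Robo4, 0.39 and 0.69 for Mmrn2, 0.39 and 0.64 for Emcn, and 0.40 and 0.61 for Pecam1. With arrays scaled to the same median and no background correction, the Emcn groups overlapped and those of the other 3 genes did not.

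**Figure D5:**
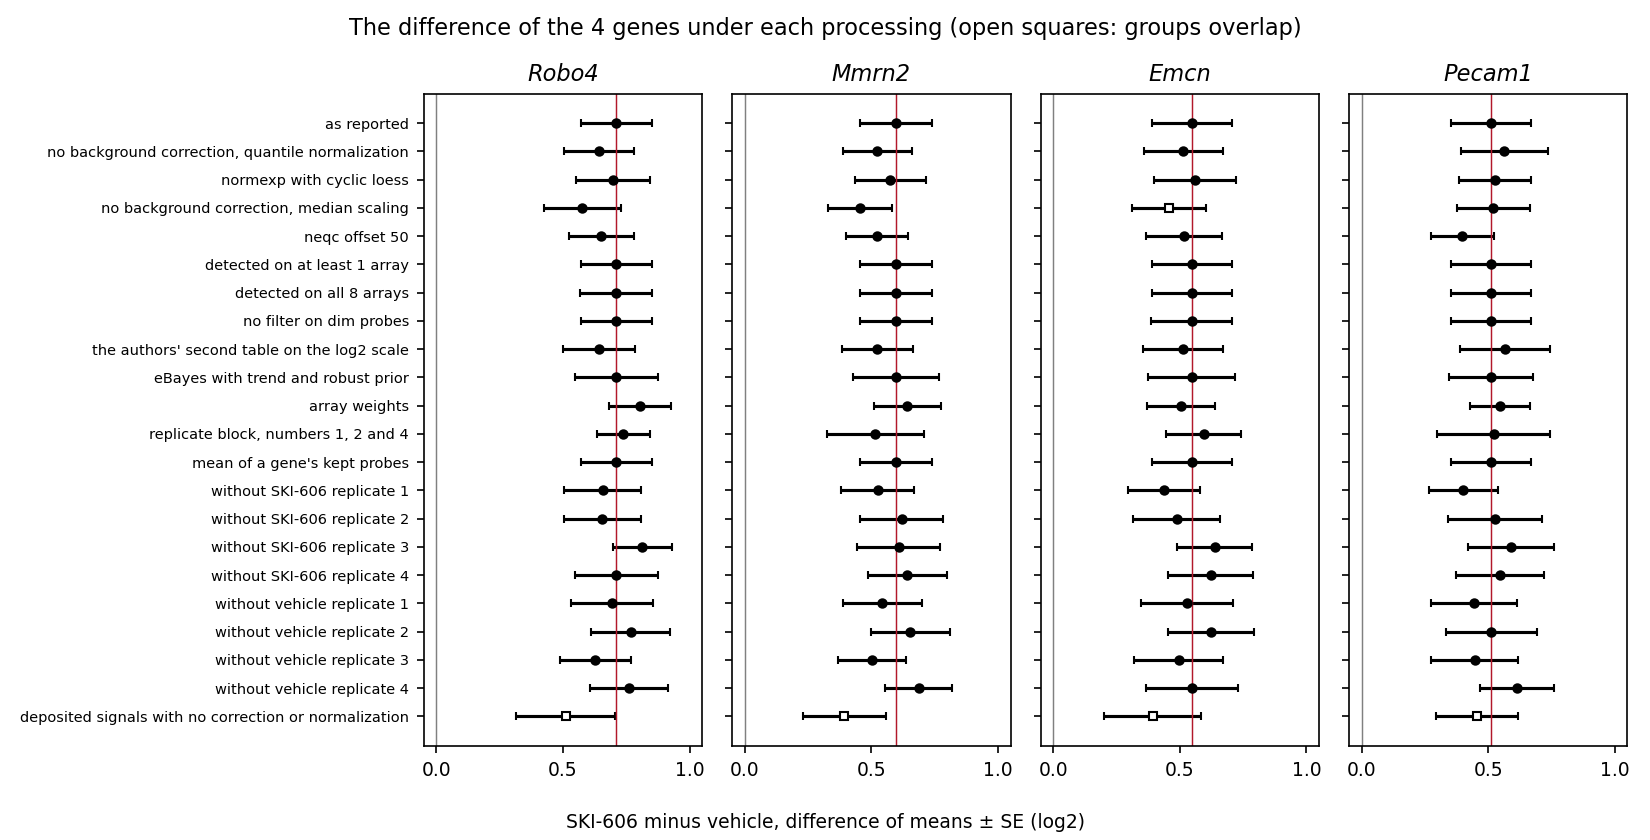
Difference of group means, SKI-606 minus vehicle, on the log2 scale with its SE (horizontal axes) for the 4 genes as reported and under 21 other ways of processing (vertical axis); the red line is the reported value, and open squares mark settings where the groups overlapped. All values lie above 0, and the deposited signals without normalization are the setting where all 4 genes overlap. Settings that change only the detection filter, the prior or the averaging of probes repeat the reported difference.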

How the data were processed

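RNA from 8 tumours (8 ng each reverse transcribed, per the labels' protocols) was hybridised to Illumina arrays of 24611 probes. The authors deposited an average signal intensity per probe and array, not normalized between arrays as its values show, and, per the file headers, a detection p-value. A second deposited table of normalized intensity values was used as an alternative. For software and genome build, the sources used here give no name.

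The function neqc (limma 3.58.1, R 4.3.3, offset 16) corrected the deposited intensity values for background, quantile-normalized them and gave log2 values. After removal of 4 bacterial control probes, the 12281 probes detected (p under 0.05) on 4 or more of the 8 arrays entered the fit. lmFit and eBayes then estimated SKI-606 minus vehicle, group alone in the model, with Benjamini-Hochberg adjustment over all kept probes. The fit was tested on simulated data only for whether it returned known differences under independent noise, which lacks any spread shared by a whole array. Figures were drawn with matplotlib 3.10.9.

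Probes were named where the number after scl, padded with 1 or 2 zeros, was a gene ID of RefSeq's table (GRCm38.p6, for names only). Of 7968 such numbers 92.7% matched, against 48.9% after adding 1. Of the 24611 probes 8851 were given a gene name, and 7643 of the 12281 kept probes had none. For a gene with several kept probes, the brightest one stands for it. The 4 genes and the lists were chosen with earlier results of these data known. Named were the 4 genes, all measured genes of the endothelial and partner lists, and up to 4 genes of each other list with the smallest p. Thbs2 was added beside Thbs1. The 3 genes nearest to each of the 4 were also named, predicted genes and clones aside.

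Replicate numbers came from the titles, and 1 vehicle title has none, so its number 3 is only a name. Vehicle replicates 1 and 3 were the closest arrays (r = 0.992 over kept probes, 48 over 2-fold apart) and were kept as separate samples. Having 4 arrays a group limits the precision.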

Additional observations from a re-analysis of the deposited data

Results flagged for a closer look

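In 138 groups of 4 tumours (69 genes), 11 had 1 tumour far from the other 3 by Dixon's criterion, which chance alone meets in about 1 group of 20. None was a group of Robo4, Mmrn2, Emcn or Pecam1. Among endothelial genes, Gpihbp1 was 6.55 in SKI-606 replicate 3, against 7.41 to 7.58 in the other SKI-606 tumours, Exoc3l2 was 6.20 in SKI-606 replicate 1, and Notch4 was 8.07 in vehicle replicate 3. Of the partner genes, Slit2 was 6.99 in SKI-606 replicate 2, Cd177 was 9.12 in SKI-606 replicate 1 and Vasp was 6.27 in vehicle replicate 4. Among markers of other cells, Reln was 6.30 in vehicle replicate 3, C1qb 9.92 in SKI-606 replicate 2, Fbln1 6.72 in SKI-606 replicate 1 and Krt8 12.89 in vehicle replicate 2. Egln3 was 11.27 in vehicle replicate 1, against 10.81 to 10.86 in the other vehicle tumours.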

How the results depend on the processing

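The differences of the 4 genes moved by less than the pooled SD between replicates under all 21 alternatives. With 1 array left out they ran from 0.63 to 0.81 for Robo4, 0.50 to 0.69 for Mmrn2, 0.44 to 0.64 for Emcn and 0.40 to 0.61 for Pecam1. The count of probes past limma's adjusted threshold was 1 as reported. It was 185 with array weights and 0 with a neqc offset of 50, median scaling, probes detected on all 8 arrays, a trend and robust prior, the deposited signals or the replicate block. With 1 array left out it ran from 0 to 17, the highest without SKI-606 replicate 2. Probes with non-overlapping groups numbered 1373, 2133 in the 6 arrays of the replicate block, and 1654 to 2306 with 1 array left out. Of the other endothelial genes 6 to 9 were higher with 1 array left out, with 8 or 9 measured. With median scaling and in the deposited signals 6 of the 9 were higher. Their median, 0.15, was 0.38 without background correction, 0.33 with median scaling, 0.37 in the authors' second table, 0.30 with array weights, 0.26 in the deposited signals, and 0.13 to 0.29 with 1 array left out, the highest without SKI-606 replicate 3. The cause was not tested. The replicate block used the numbers 1, 2 and 4 that titles give to both groups. Same-numbered tumours deviated together with r = 0.63 for number 2, 0.0044 for number 1 and -0.018 for number 4 across probes. These values differ between numbers and do not settle whether the numbers pair the samples. The block gave 0.74 for Robo4, 0.52 for Mmrn2, 0.59 for Emcn and 0.52 for Pecam1. The deposited signals were added after seeing the data. Dim probes such as Gja5 and Exoc3l2 lie near the level of undetected probes, which limits what they can show.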
